A study of Mus musculus with 21 samples.

Results

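Cardiac calcium handling genes were followed in left ventricular tissue of mice with and without Notch3. The 10 members, Cacna1c, Ryr2, Trdn, Casq2, Hrc, Atp2a2, Pln, Sln, Slc8a1 and Camk2d, were taken by symbol from the 46517 Ensembl genes of the counts table, and all 10 were found. The control group held 4 Notch3+/+ mice and the Notch3-/- group 3 mice, of the c57bl/6j strain and 10 to 14 months old, with no treatment named. The genotype is given as a loss in the whole animal, with no Cre driver or promoter, and the labels used here give no sex. Each mouse was sequenced as 3 technical libraries, which were summed, so the mouse is the replicate throughout. Control mice 1 and 2 carry mouse labels beginning with X and the other 5 mice labels beginning with k, so this label series is partly tied to genotype. Values per mouse are given in the order of control mice 1 to 4, then Notch3-/- mice 1 to 3. Summed counts were 3091461, 4638786, 4208205, 3046326 (control) and 3828763, 5167869, 5086740 (Notch3-/-). Single libraries held 464390 to 2134368 counts for control mice and 979804 to 2427783 for Notch3-/- mice.

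A heartbeat runs on a cycle of calcium. Depolarization opens the L-type channel in the cell membrane, the entering calcium opens the ryanodine receptor of the sarcoplasmic reticulum, and the released calcium drives contraction. Relaxation follows when the SERCA pump, held back by phospholamban and sarcolipin, returns calcium to the store, and the sodium-calcium exchanger moves the rest out of the cell.

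The targeted gene was low in every mouse labelled Notch3-/-. Notch3 (ENSMUSG00000038146, chr17:32120820-32166852, minus strand; all coordinates are GRCm38) stood at 57.3, 42.1, 57.6, 61.8 (control) and 6.01, 7.57, 4.73 (Notch3-/-) CPM (counts scaled to library size with the trimmed mean of M values, TMM). The groups did not overlap, and 22 to 36 counts remained in each Notch3-/- mouse. The log2 fold change was -3.16 ± 0.23 (SE, 4 and 3 mice; edgeR quasi-likelihood test with Benjamini-Hochberg adjustment over 14324 genes, adjusted p = 0.00173). All 12 genes of the ventricular cardiomyocyte list had counts in every mouse, with Ttn the most abundant in each.

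No calcium handling gene passed the threshold between genotypes. A gene was called when its adjusted p was under 0.05 and its fold change at least 1.5, and 0 of the 9 members that passed the expression filter were called with edgeR, against 1 of 14324 genes tested (0.00698%), which was Notch3 itself. Sln did not pass the filter. All 9 tested members had fitted values below 0 under TMM scaling, while scaling to cardiomyocyte genes left 4 and a depth covariate 5 of 9 below 0, as given further on. Their median log2 fold change was -0.16, in a range from -0.41 for Hrc to -0.04 for Casq2. Over all genes tested the median was -0.00284, with 7216 of 14324 genes (50.4%) below 0. At an unadjusted edgeR p under 0.05, 1 of 9 members was lower and 0 were higher, beside 3.05% of all genes lower and 7.34% higher. DESeq2 also called 0 of 9 members. Over all genes the number of calls was unstable: it was 936 without Notch3-/- mouse 3 and 300 with DESeq2, yet 0 members were called in any of the 23 alternative fits.

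**Figure D1:**
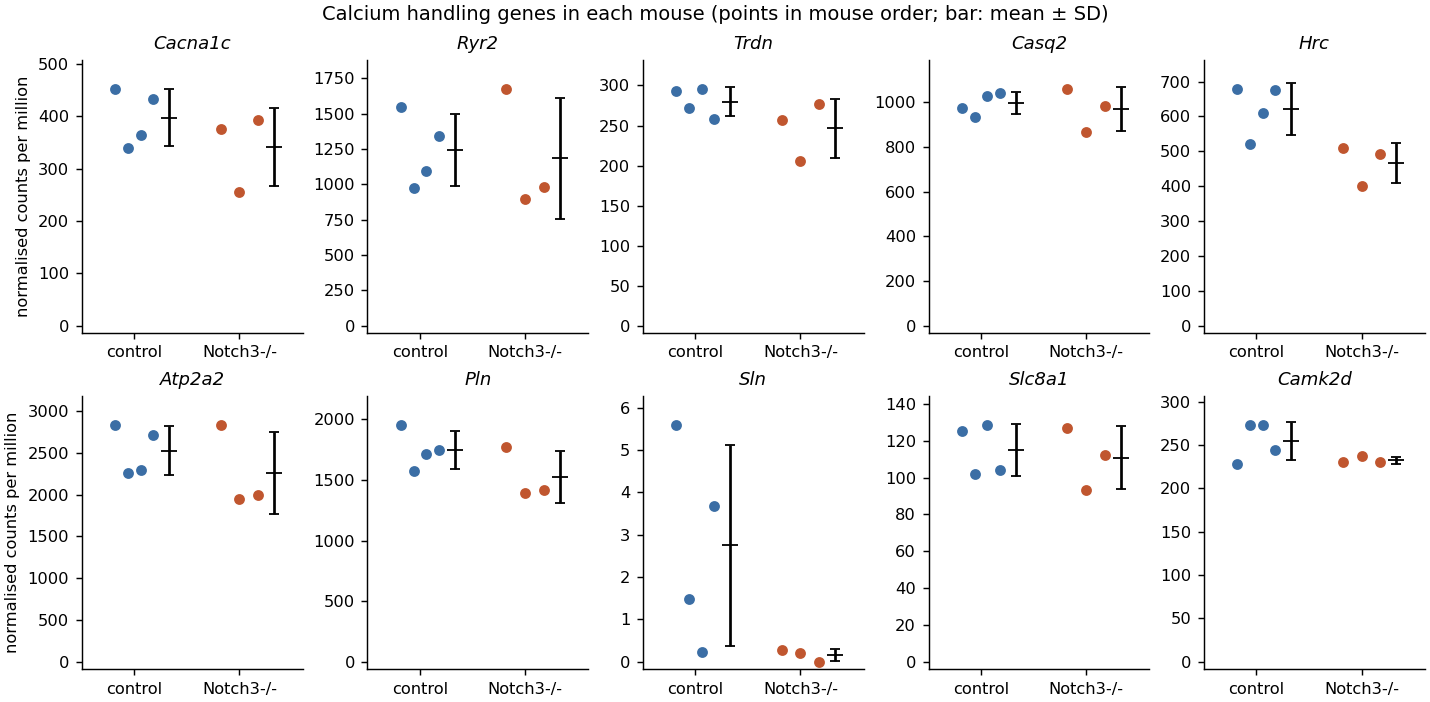
Normalised CPM (vertical axes, 1 scale per gene) of the 10 calcium handling genes in 4 control mice (blue) and 3 Notch3-/- mice (orange), each point a mouse, with mean and SD as the bar. Only Hrc has all 3 Notch3-/- mice below all 4 control mice, while Sln is near 0 in control mouse 3 and in the 3 Notch3-/- mice.

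For the entry of calcium the transcript of Cacna1c (ENSMUSG00000051331, chr6:118587240-119196418, minus strand), which encodes the pore of the L-type channel, was counted. It stood at 453, 340, 364, 434 (control) and 375, 256, 394 (Notch3-/-) CPM. The groups overlapped, and Notch3-/- mouse 2 alone lay below every control mouse. The log2 fold change was -0.22 ± 0.17 (SE, 4 and 3 mice; edgeR quasi-likelihood with Benjamini-Hochberg, adjusted p = 0.694), and -0.05 without Notch3-/- mouse 2.

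For the release unit the transcripts of Ryr2, Trdn, Casq2 and Hrc were counted. Ryr2 (ENSMUSG00000021313, chr13:11553102-12106945, minus strand), the release channel itself, stood at 1548, 978, 1095, 1344 (control) and 1678, 897, 983 (Notch3-/-) CPM. The highest and the lowest of the 7 mice were both Notch3-/-, and the log2 fold change of -0.07 ± 0.23 (SE, 4 and 3 mice; edgeR adjusted p = 0.949) was smaller than its error. Casq2 (ENSMUSG00000027861, chr3:102086415-102146514, plus strand), the calcium buffer of the store, ranged over 935 to 1041 CPM (control) and 868 to 1062 CPM (Notch3-/-), with a log2 fold change of -0.04 ± 0.10 (edgeR adjusted p = 0.937). Trdn (ENSMUSG00000019787, chr10:33080554-33476709, plus strand), which anchors calsequestrin to the channel, ranged over 258 to 296 CPM (control) and 206 to 277 CPM (Notch3-/-), with a log2 fold change of -0.18 ± 0.13 (edgeR adjusted p = 0.652). In both genes the groups overlapped and Notch3-/- mouse 2 was the lowest of the 7.

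Of the 9 tested members Hrc had the largest fitted difference. Hrc (ENSMUSG00000038239, chr7:45335290-45338974, plus strand), a histidine-rich protein that binds calcium inside the store, stood at 680, 520, 610, 677 (control) and 508, 401, 492 (Notch3-/-) CPM. All 3 Notch3-/- mice lay below all 4 control mice, as was the case for 567 of 14324 genes (3.96%), although Notch3-/- mouse 1 and control mouse 2 were close. The log2 fold change was -0.41 ± 0.13 (SE, 4 and 3 mice), or 1.33-fold lower. It did not pass the test (edgeR quasi-likelihood p = 0.0109, Benjamini-Hochberg adjusted p = 0.301). The value stayed below 0 in all 23 alternative fits, from -0.55 to -0.22, with adjusted p from 0.0972 to 0.998 (edgeR, DESeq2 or limma, each with Benjamini-Hochberg).

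For the pump and its inhibitors the transcripts of Atp2a2, Pln and Sln were counted. Atp2a2 (ENSMUSG00000029467, chr5:122453513-122502225, minus strand), which encodes SERCA2, stood at 2837, 2257, 2290, 2715 (control) and 2829, 1954, 1991 (Notch3-/-) CPM. Notch3-/- mouse 1 lay within the control range while mice 2 and 3 lay below it, and the log2 fold change was -0.16 ± 0.15 (SE, 4 and 3 mice; edgeR adjusted p = 0.750). Pln (ENSMUSG00000038583, chr10:53337667-53345987, plus strand), phospholamban, stood at 1957, 1572, 1714, 1744 (control) and 1774, 1390, 1415 (Notch3-/-) CPM. Here too Notch3-/- mice 2 and 3 lay below the control range and mouse 1 within it, with a log2 fold change of -0.19 ± 0.12 (SE, 4 and 3 mice; edgeR adjusted p = 0.598).

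The coding sequences of both pump inhibitors are shown because Pln and Sln stand at opposite ends of the members' levels and because Pln carries the sites at which CaMKII and protein kinase A act on the pump. They were read from the GENCODE vM21 transcripts (GRCm38, plus strand) from the start codon to the stop codon, 159 bases for Pln and 96 bases for Sln. Capitals in Pln mark the adjoining codons 16 and 17, the serine phosphorylated by protein kinase A and the threonine phosphorylated by CaMKII, and nothing is marked in Sln.
Pln: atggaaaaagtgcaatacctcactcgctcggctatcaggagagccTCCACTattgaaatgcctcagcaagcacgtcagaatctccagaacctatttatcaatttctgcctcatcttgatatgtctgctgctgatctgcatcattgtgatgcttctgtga
Sln: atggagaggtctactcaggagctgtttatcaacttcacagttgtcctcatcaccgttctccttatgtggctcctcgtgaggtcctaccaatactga

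Sln (ENSMUSG00000042045, chr9:53850164-53854560, plus strand), sarcolipin, is known as the pump inhibitor of atria and skeletal muscle. Its counts were 17, 7, 1, 11 (control) and 1, 1, 0 (Notch3-/-). Control mouse 3 was thus as low as the Notch3-/- mice, and the count of 0 in Notch3-/- mouse 3 allows a level of up to 0.590 CPM (a floor of 3 counts). Over the groups this was 36 counts against 2, a ratio per total count of 0.0591 (95% exact interval for counting error only, 0.00690 to 0.230), which leaves out the spread between mice. When every gene with at least 1 count was tested, Sln was not called (edgeR quasi-likelihood with Benjamini-Hochberg, adjusted p = 0.0944, and 0.225 to 0.885 in the fits with fewer Notch3-/- mice).

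The atrial and skeletal muscle lists stand beside Sln since RNA from either tissue could carry it, and their part in its counts was not tested. The 5 atrial genes summed to 127, 166, 704, 243 (control) and 177, 933, 420 (Notch3-/-) counts, with Nppa the most abundant in all 7 mice. Nppa was highest in control mouse 3 and Notch3-/- mouse 2, which each had 1 Sln count. Of the other atrial genes, named after their values were seen, Myl4 had 34, 27, 16, 20 (control) and 17, 17, 15 (Notch3-/-) counts and Myl7 had 9, 4, 9, 17 (control) and 4, 5, 20 (Notch3-/-). In CPM, Myl4 stood at 11.2, 5.69, 3.76, 6.68 (control) and 4.65, 3.58, 2.84 (Notch3-/-). Sln stood at 5.60, 1.48, 0.235, 3.67 (control) and 0.273, 0.210, 0 (Notch3-/-) CPM. The mice ranked alike in Myl4 and Sln, but not in Nppa or Myl7, and Sln values from 1 count differ by depth only. Bmp10 was at 0 in the 4 control mice and in Notch3-/- mouse 1, with 9 and 7 counts in Notch3-/- mice 2 and 3, and Mybphl was at 0 in control mouse 3 and in Notch3-/- mice 1 and 2. The 9 skeletal muscle genes summed to 4.61, 5.27, 4.23, 2.34 (control) and 3.01, 51.3, 3.40 (Notch3-/-) CPM, and 6, 7, 6, 4 (control) and 6, 9, 6 (Notch3-/-) of them had a count. Notch3-/- mouse 2 stood apart, led by Tnnt3 at 69 counts. Myh2 was at 0 in the other 6 mice, and Myh4 in all of those but control mouse 2.

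For export the transcript of Slc8a1 (ENSMUSG00000054640, chr17:81373105-81738377, minus strand), the sodium-calcium exchanger, was counted. The gene lies on the same chromosome as Notch3. It ranged over 102 to 129 CPM (control) and 93.0 to 127 CPM (Notch3-/-), with a log2 fold change of -0.06 ± 0.16 (SE, 4 and 3 mice; edgeR adjusted p = 0.935). Camk2d (ENSMUSG00000053819, chr3:126596302-126846326, plus strand), which encodes the main CaMKII of the heart, stood at 229, 274, 273, 244 (control) and 230, 237, 230 (Notch3-/-) CPM. All 3 Notch3-/- values were inside the control range, and the log2 fold change was -0.13 ± 0.11 (SE, 4 and 3 mice; edgeR adjusted p = 0.722).

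Across mice the median of the members overlapped between genotypes, although Hrc did not. Relative to the control mean of each gene, that median, over the 9 tested members on the log2 scale, was 0.14, -0.15, -0.02, 0.07 (control) and 0.03, -0.36, -0.14 (Notch3-/-). Notch3-/- mice 2 and 3 had 9 of 9 members below the control mean, Notch3-/- mouse 1 had 4, and control mouse 2 had 8. The 12 ventricular cardiomyocyte genes moved with them and summed to 34735, 25581, 29852, 34173 (control) and 34025, 23229, 25349 (Notch3-/-) CPM, lowest in the same 3 mice, which are also the 3 with the most counts. All 12 had fitted log2 fold changes below 0 under TMM, with a median of -0.25 and 0 called, and their part in the members' values was not tested. In bulk tissue, fewer cells of a type and less RNA per cell cannot be told apart, and here neither can be told apart from the depth of the libraries.

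**Figure D2:**
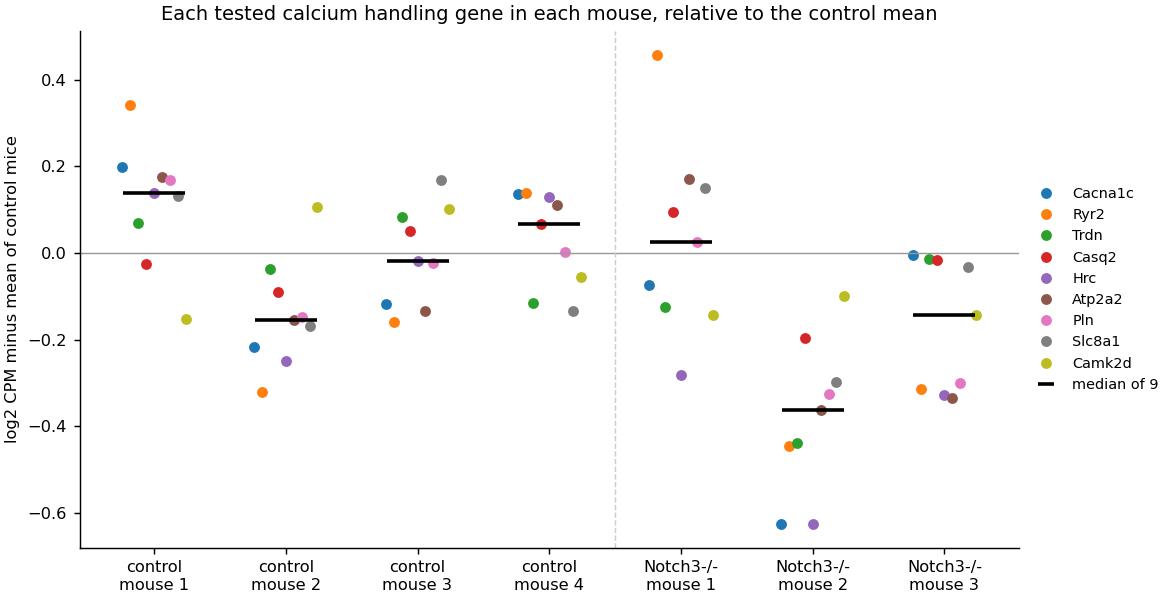
Log2 CPM of each of the 9 tested members minus that gene's mean over the 4 control mice (vertical axis), by mouse (horizontal axis), with the median of the 9 as a black bar. Control mouse 2 and Notch3-/- mice 2 and 3 lie mostly below 0, and the median of Notch3-/- mouse 1 lies among those of the control mice. Some of its single members lie outside the control range, such as Ryr2 above it (0.46) and Hrc below it (-0.28).

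When the libraries were scaled to the summed ventricular cardiomyocyte genes in place of TMM, 4 of 9 members were below 0 and the members' median log2 fold change was 0.01. That scaling moved the median of all genes to 0.19, and it moves every gene of the lists below in the same direction. The summed counts of the scaling genes ran from 102319 to 134052 over the mice, while total counts ran from 3046326 to 5167869. The scaling genes thus rose less than the totals and may themselves go with depth, which was not tested. Under this scaling Hrc was still the lowest, at -0.22, and no member was called. The 15 hepatocyte genes, led by Alb in 6 of 7 mice and by Ahsg in control mouse 3, summed to 51.4, 160, 13.6, 24.0 (control) and 6489, 12071, 147 (Notch3-/-) CPM, and 13, 15, 13, 11 (control) and 15, 15, 15 (Notch3-/-) of them had a count. Notch3-/- mouse 3, with little hepatocyte RNA, lay below the control range for Hrc, Atp2a2 and Pln and within it for the other 6 tested members. In an alternative chosen after seeing the data, Notch3-/- mouse 3 alone was set against the 4 control mice, where the lone mouse is assumed to vary like the others. There 9 of the same 9 members were below 0 and 0 were called (edgeR). The part of hepatocyte RNA in the members' values was not tested.

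Log2 CPM went with library depth in several members. The highest counts per exon base of any gene of at least 200 exon bases stood between 1.76 and 1.97 in each of the 21 libraries. Pln reached a median of 0.796 and at most 1.11 counts per base, Atp2a2 0.513 and at most 0.713, and Casq2 0.480 and at most 0.849. Slc8a1, Camk2d and Cacna1c reached at most 0.0158, 0.0318 and 0.0428. Within mice, the slope of log2 CPM per doubling of the library total was -0.62 ± 0.05 for Atp2a2 and -0.59 ± 0.03 for Pln (SE over 21 libraries), below 0 in 7 of 7 mice for both. It was -0.35 ± 0.04 for Casq2, -0.49 ± 0.20 for Ryr2 and -0.30 ± 0.09 for Hrc, below 0 in 7, 5 and 6 of 7 mice. For Slc8a1 the slope was -0.23 ± 0.19, for Cacna1c -0.15 ± 0.11, for Trdn -0.01 ± 0.11 and for Camk2d 0.17 ± 0.11, below 0 in 6, 5, 3 and 1 of 7 mice.

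**Figure D3:**
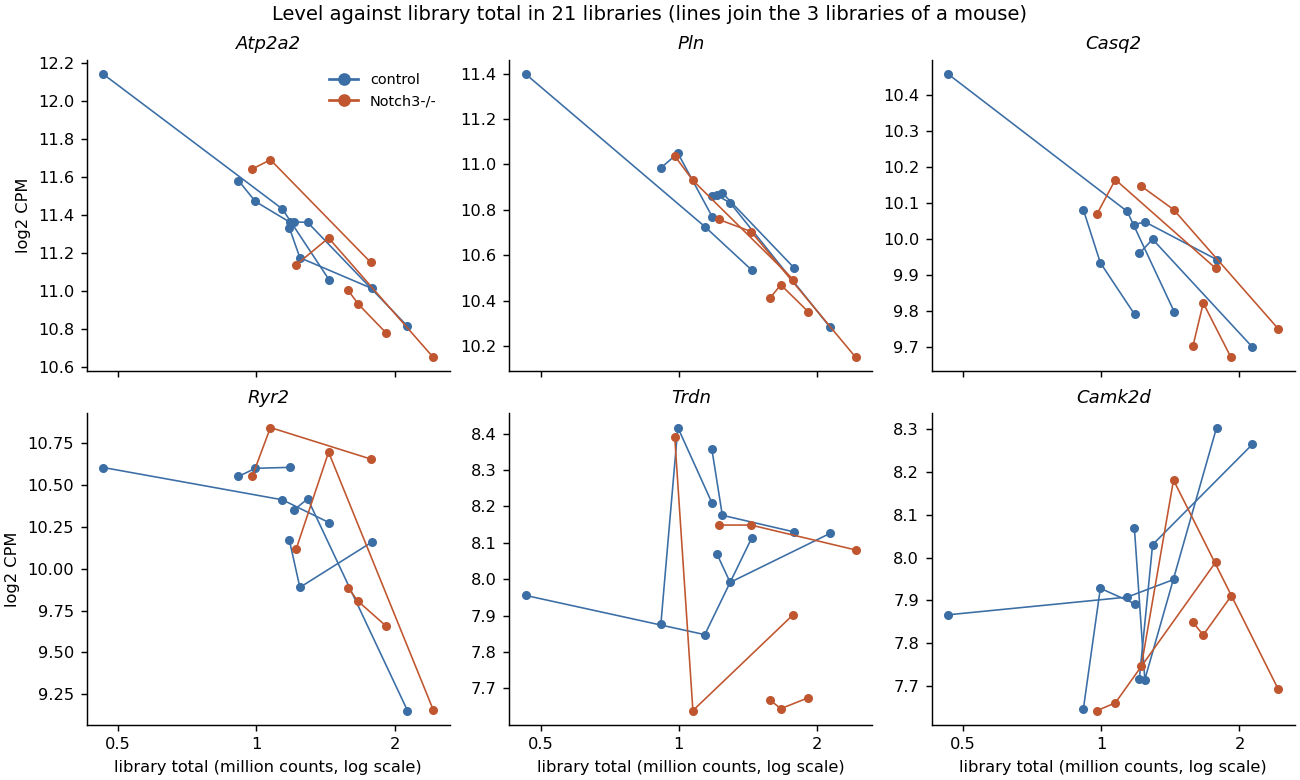
Log2 CPM (vertical axes) of 6 members against library total (horizontal axis, log scale) in 21 libraries, with lines joining the 3 libraries of a mouse. The slopes of Atp2a2, Pln and Casq2 are below 0 in all 7 mice, at -0.62, -0.59 and -0.35 per doubling.

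The genotype difference was therefore also fitted with the log2 library total as a covariate over the 21 libraries (limma-voom, mouse as a random effect). The log2 fold change was then 0.03 for Atp2a2, -0.02 for Pln, 0.06 for Casq2 and 0.12 for Ryr2. Hrc stayed below 0 at -0.28 and Trdn at -0.19, while Camk2d was at -0.21. In all, 5 of 9 members were below 0, and none was called. With all libraries thinned to the smallest total, Atp2a2 was at -0.20 and Pln at -0.23. Thinning counts at random keeps the expected share of each gene in its library. It therefore cannot undo a share that had already changed with depth. The duplicate handling behind the counts is not given in the sources used here, and the cause of the slopes was not tested.

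**Figure D4:**
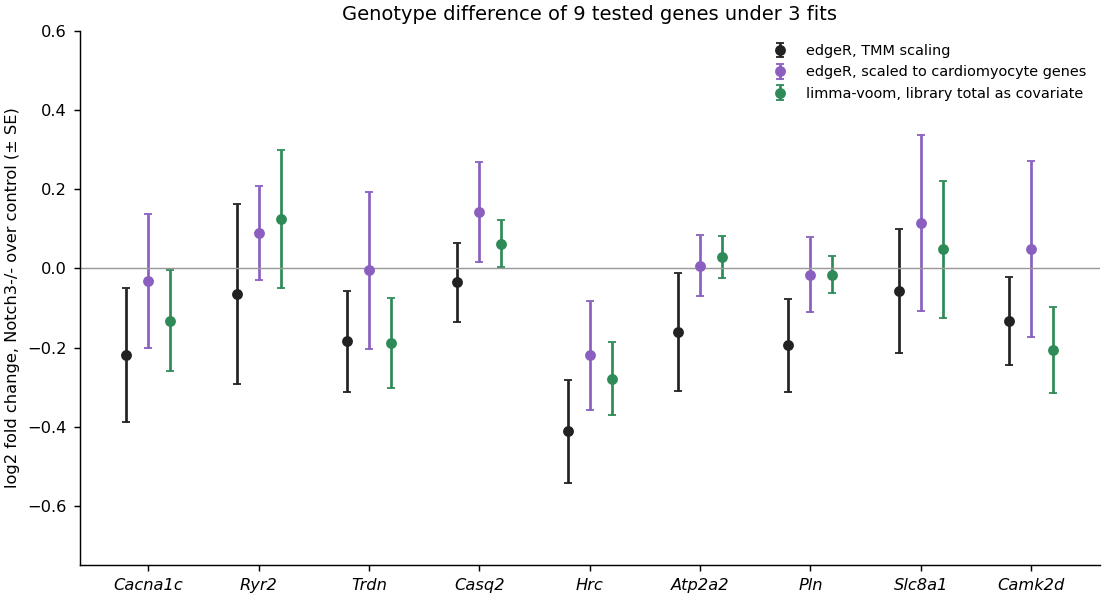
Log2 fold change of Notch3-/- over control (vertical axis, with SE) for the 9 tested members under edgeR with TMM, edgeR scaled to cardiomyocyte genes, and limma-voom with the library total as a covariate. Hrc (-0.41, -0.22 and -0.28) is below 0 in all 3 fits, as are Cacna1c (-0.22, -0.03 and -0.13), Pln (-0.19, -0.02 and -0.02) and Trdn (-0.18, -0.00487 and -0.19), while Atp2a2 goes from -0.16 to 0.01 and 0.03.

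The technical libraries of a mouse differed as well. The SD of log2 CPM between the 3 libraries of a mouse, pooled over mice, was 0.41 for Ryr2, 0.30 for Atp2a2 and 0.28 for Pln, beside SDs between summed mice of a genotype of 0.38, 0.23 and 0.16. For Hrc the values were 0.21 and 0.18, and for Cacna1c 0.20 and 0.27. The first SD is of single libraries and the second of sums of 3, so the 2 are not on the same footing.

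Ratios within a mouse do not depend on how a library is scaled, though they can depend on depth where 2 genes differ in slope, and 3 were compared. Pln over Atp2a2, inhibitor against pump, was 0.690, 0.697, 0.748, 0.643 (control) and 0.627, 0.712, 0.711 (Notch3-/-). The groups overlapped, and the mean log2 difference was -0.02 (exact permutation, two-sided, over 35 divisions of the mice, p = 0.743, Benjamini-Hochberg over 3 ratios adjusted p = 0.743). Slc8a1 over Atp2a2, export against uptake, differed by 0.12 on the log2 scale, with 0.0218 to 0.22 when 1 mouse was left out (exact permutation, two-sided, p = 0.429, adjusted p = 0.743). Casq2 over Ryr2, buffer against channel, was 0.631, 0.956, 0.941, 0.775 (control) and 0.633, 0.968, 1.00 (Notch3-/-), a log2 difference of 0.06 (exact permutation, two-sided, p = 0.686, adjusted p = 0.743). The smallest p this test can give is 0.0286. The groups overlapped in all 3 ratios.

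Levels of different genes were set beside each other per kilobase of exon. Since CPM went with depth in several members (Pln ranged over 1135 to 2697 CPM in single libraries), these levels hold for the depth of these libraries. Those of Pln, Atp2a2 and Casq2 may be too low beside the others, as may those of Ryr2 and Hrc, with slopes of -0.49 and -0.30 per doubling. Over the 4 control mice Pln was the highest, at 633 ± 57.6 CPM per kb (SD), followed by Atp2a2 at 415 ± 48.5, Casq2 at 364 ± 18.1 and Hrc at 242 ± 29.2. Ryr2 came next at 43.1 ± 8.87, then Trdn at 29.9 ± 1.94, Cacna1c at 18.8 ± 2.58, Camk2d at 11.3 ± 0.983 and Slc8a1 at 6.12 ± 0.744, and Sln was last at 2.08 ± 1.80. Among neighbours in this order, Atp2a2 and Casq2 alone overlapped in their ranges over control mice. The means of the Notch3-/- mice had the same order. With the longest transcript in place of the union of exons, the level of Camk2d became 46.1 and that of Cacna1c 30.2 CPM per kb, which exchanged their places. Pln shares 1644 of its 2759 exon bases with Gm47644, which has no entry in the deposited counts, and 141 with Cep85l, on the opposite strand. Slc8a1 shares 296 with AC122399.1, which has no entry either, and 8 with Gm11096, and Atp2a2 83 with Gm43361, also on the opposite strand. The strand setting of the counts is not given, so reads from these stretches cannot be told apart.

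The rest of the calcium machinery was described from 7 lists of 106 genes in all, of which 104 were matched and 93 tested. Of these, 34 had fitted values above 0 and 59 below, with a median log2 fold change of -0.11, and 0 were called with edgeR or with DESeq2. Scaled to cardiomyocyte genes, 35 of 93 were below 0 and 58 above, with a median of 0.10, beside the 0.19 of all genes. By list, in the order given below, 4 of 13, 7 of 17, 2 of 5, 1 of 9, 11 of 24, 6 of 11, 4 of 14 were then below 0. At an unadjusted edgeR p under 0.05, 2 were higher (2.15%, beside 7.34% of all genes) and 7 lower (7.53%, beside 3.05%). All 3 Notch3-/- mice lay above all control mice in 1 of 93 (1.08%, beside 4.57% of all genes) and below them in 8 (8.60%, beside 3.96%).

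**Figure D5:**
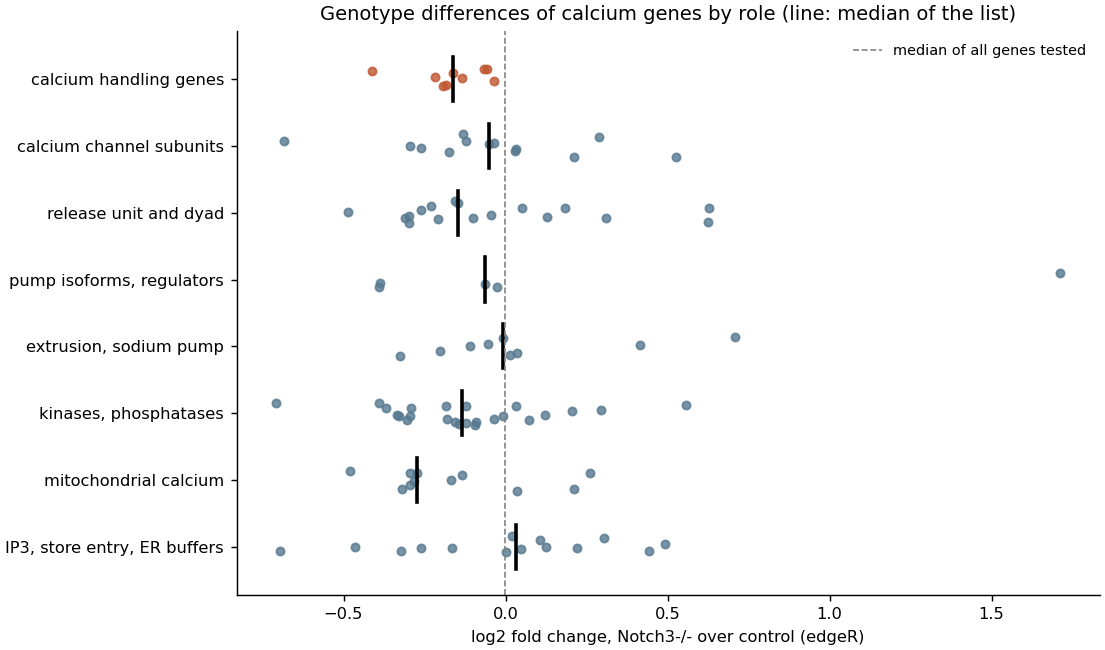
Log2 fold change of Notch3-/- over control (horizontal axis, edgeR with TMM) of each tested gene in the calcium handling members and the 7 other lists, with the median of each list as a black line and the median of all genes as a dashed line. The medians run from -0.27 for mitochondrial calcium genes to 0.03 for the IP3, store entry and ER buffer genes, under this scaling, while scaled to cardiomyocyte genes they run from -0.0940 to 0.24, and the highest point, at 1.71, is Atp2a1.

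Of the calcium channel subunits and their inhibitors, 5 of 13 tested genes were above 0 and 8 below (median -0.05). Cacnb4 and Cacnb3, beta subunits, had log2 fold changes of -0.68 ± 0.48 and 0.53 ± 0.38 (SE, 4 and 3 mice; edgeR adjusted p of 0.656 and 0.672) at levels under 6 CPM. Cacna1h, a T-type channel, had -0.29 ± 0.36, and -0.02 without Notch3-/- mouse 1. Rrad, a small GTPase that holds the L-type channel back and the most abundant of the list, ranged over 176 to 478 CPM (control) and 274 to 373 CPM (Notch3-/-).

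Of the release unit and dyad genes, 6 of 17 tested genes were above 0 and 11 below (median -0.15). Sri, sorcin, which damps the release channel, stood at 86.9, 78.8, 89.6, 87.5 (control) and 98.9, 113, 106 (Notch3-/-) CPM. It was higher in 3 of 3 Notch3-/- mice than in every control mouse, with a log2 fold change of 0.31 ± 0.12 (SE; edgeR quasi-likelihood p = 0.0319, Benjamini-Hochberg adjusted p = 0.430). Calm3, a calmodulin gene, went the other way without overlap, at 77.6 to 93.2 CPM (control) and 59.5 to 77.5 CPM (Notch3-/-) and a log2 fold change of -0.31 ± 0.14 (SE; edgeR adjusted p = 0.490). S100a1, a calcium sensor of the release channel and the pump, was at -0.30 ± 0.14 with overlapping groups. Tmem38a, the TRIC-A channel of the store and the most abundant of the list, was at -0.15 ± 0.11.

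Of the pump isoforms and regulators, 1 of 5 tested genes were above 0 and 4 below (median -0.06). Atp2a1, the pump of fast skeletal muscle, stood at 5.60, 2.53, 0.471, 2.00 (control) and 2.19, 19.8, 3.21 (Notch3-/-) CPM. Its log2 fold change of 1.71 ± 0.84 (SE; edgeR adjusted p = 0.507) rested on Notch3-/- mouse 2, the mouse with 51.3 CPM of skeletal muscle genes, and was 0.09 without it. Strit1, whose small protein competes with phospholamban for the pump and which the annotation lists as Gm34302, was at -0.39 ± 0.26, and Atp2a3 at -0.39 ± 0.23. Ppp1r3a, the most abundant of the list and a targeting subunit of protein phosphatase 1 in muscle, was at -0.03 ± 0.12. Erln and Arln were not matched.

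Of the extrusion and sodium pump genes, 4 of 9 tested genes were above 0 and 5 below (median -0.01). Slc8b1, the mitochondrial sodium-calcium exchanger, was at 0.41 ± 0.20 (SE; edgeR adjusted p = 0.499). Fxyd1, phospholemman, which regulates the sodium pump, was at -0.20 ± 0.16.

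Of the kinases, phosphatases and receptor pathway genes, 6 of 24 tested genes were above 0 and 18 below (median -0.13). Gnas, the stimulatory G protein subunit, stood at 387, 396, 396, 406 (control) and 344, 249, 314 (Notch3-/-) CPM. The groups did not overlap, and its log2 fold change was -0.39 ± 0.12 (SE; edgeR quasi-likelihood p = 0.0106, Benjamini-Hochberg adjusted p = 0.298). Prkaca, a catalytic subunit of protein kinase A, did not overlap either, at 162 to 190 CPM (control) and 117 to 152 CPM (Notch3-/-) and a log2 fold change of -0.34 ± 0.14 (SE; edgeR adjusted p = 0.438). Camk2a was at -0.37 ± 0.16, and Prkar1a, a regulatory subunit of protein kinase A and the most abundant of the list, at -0.01 ± 0.09.

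The mitochondrial calcium genes had the lowest median of the 7 lists: 3 of 11 tested genes were above 0 and 8 below (median -0.27). Micu2, a gatekeeper of the mitochondrial uniporter, stood at 138, 182, 170, 124 (control) and 107, 105, 118 (Notch3-/-) CPM. The groups did not overlap, and the log2 fold change was -0.48 ± 0.16 (SE; edgeR quasi-likelihood p = 0.0137, Benjamini-Hochberg adjusted p = 0.328). Vdac1 and Vdac2, channels of the outer mitochondrial membrane, also had all 3 Notch3-/- mice below all control mice, with log2 fold changes of -0.30 ± 0.11 and -0.29 ± 0.12 (SE; edgeR adjusted p of 0.396 and 0.465). Vdac1 was the most abundant of the list.

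Of the IP3 receptor, store entry and ER buffer genes, 9 of 14 tested genes were above 0 and 5 below (median 0.03). Stim1, the calcium sensor of the store, stood at 46.1 to 60.7 CPM (control) and 81.4, 96.8, 51.1 CPM (Notch3-/-). Calr, calreticulin, stood at 252 to 281 CPM (control) and 331, 398, 268 CPM (Notch3-/-), and Hspa5, the most abundant of the list, at 609 to 664 CPM (control) and 718, 880, 619 CPM (Notch3-/-). The high values lay in Notch3-/- mice 1 and 2, the mice with 6489 and 12071 CPM of hepatocyte genes, whose part was not tested. Log2 fold changes were 0.49 ± 0.21, 0.30 ± 0.14 and 0.22 ± 0.12 (SE; edgeR adjusted p of 0.470, 0.490 and 0.571), and against Notch3-/- mouse 3 alone -0.09, -0.01 and -0.03. Orai1, the store entry channel, was at -0.70 ± 0.33 (SE; edgeR adjusted p = 0.499) at levels of 5.29 to 19.4 CPM.

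Genes whose log2 CPM followed Ryr2 and Atp2a2 closely over the 7 mice were taken from 8726 genes with a mean of at least 20 CPM. For Ryr2 they were Tmem245 (Pearson r = 0.968) and Ablim1 (r = 0.955). For Atp2a2 they were Tmem94 (r = 0.994), Aes (r = 0.964) and Tuba4a (r = 0.964). Without the 2 mice farthest from the median, r was 0.996, 0.830 for the first 2 genes and 0.989, 0.945, 0.923 for the others. These are among the highest of many values over 7 mice that share differences in depth, and they carry no test.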

How the data were processed

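Left ventricular RNA was copied to cDNA and sequenced as single reads. The authors deposited raw counts per Ensembl gene for 21 libraries; the aligner, counting program, strand setting and duplicate handling are not given in the sources used here. The 92 spike-in entries (34 counts in all) were left out. Symbols, exon lengths and coordinates came from GENCODE vM21 (GRCm38), in which 46005 of 46517 genes were found, and symbols it lacks from RefSeq synonyms.

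Counts were summed over the 3 technical libraries of a mouse and tested with edgeR 4.0.16 (filterByExpr, TMM factors, quasi-likelihood F-test, genotype only, Benjamini-Hochberg over all genes tested) in R 4.3.3. DESeq2 1.42.0, limma-voom 3.58.1, other scalings, filters, depths and left-out mice were alternatives. The fits were tested on simulated data, where edgeR and limma-voom on mice kept false calls under the FDR threshold, DESeq2 went somewhat above it, and the fits on 21 libraries with the mouse as a random effect made many more false calls than it allows.

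Named genes were the members, Notch3, in each other list the 3 tested genes with the smallest p and the most abundant one, the 3 genes most like Ryr2 and Atp2a2, and marker genes that lead a list or stand at 0. Some genes that this rule gives are not reported here. Members and lists were chosen with earlier results of these data known.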

Additional observations from a re-analysis of the deposited data

How the results depend on the processing

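Genes called over the whole table were 1 with edgeR on 7 mice, 300 with DESeq2, 193 when scaled to cardiomyocyte genes, 639 with every gene with a count kept and 0 with only the mice labelled k (2 control and 3 Notch3-/- mice), where Notch3 itself was not called (log2 fold change -3.29, edgeR adjusted p = 0.206). They were 48, 39 and 77 with technical library 1, 2 or 3 alone, and 1 to 936 with 1 mouse left out, the most without Notch3-/- mouse 3. On 21 libraries limma-voom called 65, 62 with the technical number as a replicate block and 11 with a depth covariate. On simulated data library fits with the mouse as a random effect made more false calls than the threshold allows, so the 65 and 62 are less reliable. The depth covariate itself was not simulated, and its 11 calls come from the same kind of fit. The technical numbers did not pair across mice: deviations of same-numbered libraries correlated with a median r of -0.02 over 63 pairs.

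The members' median log2 fold change was -0.29 to -0.0681 over the same 9 members with 1 mouse left out and turned to 0.00718 when scaled to cardiomyocyte genes. Members below 0 were 4 of 9 under that scaling, 5 of 9 with the depth covariate and 6 to 9 of the same 9 with 1 mouse left out, the fewest without Notch3-/- mouse 2. Of the other calcium genes 1 was called with the depth covariate (Micu2) and 1 without Notch3-/- mouse 3 (Stim1), so leaving out 1 mouse gave 0 to 1.

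Fold changes that turned direction follow, and the cause was not tested. Scaled to cardiomyocyte genes: Ryr2 0.0899, Atp2a2 0.00718, Casq2 0.14, Slc8a1 0.12, Camk2d 0.0485, Rrad 0.11, Tmem38a 0.0311, Ppp1r3a 0.13, Prkar1a 0.19. With the depth covariate: Ryr2 0.12, Atp2a2 0.0292, Casq2 0.0623, Slc8a1 0.0481, Rrad 0.19, Prkar1a 0.0402. Technical library 1 alone: Rrad 0.0402, Ppp1r3a 0.0222. Library 2 alone: Ryr2 0.0952, Slc8a1 0.16, Camk2d 0.12, Prkar1a 0.0580. Library 3 alone: Strit1 0.13, Prkar1a 0.0151. Against Notch3-/- mouse 3 alone, chosen after seeing the data: Cacna1h 0.20, Rrad 0.0350, Stim1 -0.0868, Calr -0.00666, Hspa5 -0.0335. Mice labelled k: Ppp1r3a 0.00215 and Casq2 over Ryr2 -0.00718. Prkar1a was 0.000251 with at least 10 counts in every mouse and 0.0193 in thinned libraries.

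With 1 mouse left out the range crossed 0 for Ryr2 (-0.40 to 0.0995), Casq2 (-0.10 to 0.0392), Slc8a1 (-0.17 to 0.0544), Rrad (-0.36 to 0.0346), Ppp1r3a (-0.11 to 0.0413), Prkar1a (-0.0379 to 0.0249), Pln over Atp2a2 (-0.0603 to 0.0370) and Casq2 over Ryr2 (-0.0616 to 0.27). It kept its direction but moved for Cacna1c (-0.34 to -0.0469), Atp2a2 (-0.36 to -0.0681), Trdn (-0.28 to -0.0699), Pln (-0.32 to -0.13) and Slc8a1 over Atp2a2 (0.0218 to 0.22), nearest to 0 without Notch3-/- mouse 2 for the 4 genes and without Notch3-/- mouse 3 for the ratio. Of the other named genes, those that moved by over 1.5 times with 1 mouse left out, in 1 direction, were Cacnb4 (-1.27 to -0.44), Cacnb3 (0.35 to 0.68), Cacna1h (-0.64 to -0.0222), Tmem38a (-0.23 to -0.0725), Atp2a1 (0.0888 to 2.33), Atp2a3 (-0.64 to -0.26), Fxyd1 (-0.35 to -0.0947), Vdac2 (-0.39 to -0.17), Stim1 (0.28 to 0.71), Calr (0.15 to 0.43), Orai1 (-0.98 to -0.44), Hspa5 (0.0750 to 0.33). They were nearest to 0 without Notch3-/- mouse 1 (Cacna1h), mouse 2 (Tmem38a, Atp2a1, Vdac2, Stim1, Calr, Hspa5) or mouse 3 (Cacnb4, Orai1), or without control mouse 1 (Fxyd1) or 4 (Cacnb3, Atp2a3). Over all 23 alternatives the values nearest to 0 were -0.0120 for Cacna1c, -0.00487 for Trdn and -0.0154 for Pln. Notch3 kept its direction with each mouse left out, and Hrc ranged over -0.49 to -0.31. Of the levels per length, those of Pln, Casq2, Ryr2, Trdn, Cacna1c and Camk2d moved by more than 1 SD with the longest transcript (748, 390, 73.8, 62.0, 30.2, 46.1 CPM per kb).

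Libraries were on the whole deeper in Notch3-/- mice, and hepatocyte RNA was high in Notch3-/- mice 1 and 2, so genotype, depth and hepatocyte RNA cannot be told apart fully with 7 mice. Sln is limited by depth, with at most 10 counts in a library.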

Other observations

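Other cell type lists were summed in each mouse (CPM, control mice 1 to 4, then Notch3-/- mice 1 to 3). Smooth muscle genes (most abundant Smtn) gave 758, 597, 546, 629 (control) and 693, 481, 516 (Notch3-/-), and pericyte genes (Rgs5 or Abcc9) 1222, 1103, 1126, 1168 (control) and 1075, 902, 964 (Notch3-/-). Smtn made up most of the smooth muscle sum in each mouse. Myh11, named after its values were seen, stood at 39.8, 20.4, 10.6, 19.7 (control) and 3.28, 5.05, 3.59 (Notch3-/-) without overlap. The other genes of that list overlapped, and of its 5 tested genes 2 were above 0 and 3 below. Fibroblast genes (Dcn) gave 1169, 1069, 984, 956 (control) and 1030, 1086, 1229 (Notch3-/-), and endothelial genes (Pecam1 or Kdr) 1045, 805, 1037, 1345 (control) and 1135, 1181, 1188 (Notch3-/-). Of the fibroblast genes, Dcn was lower and Col1a1 higher without overlap, while the other genes of that list overlapped. Over all genes tested, 3.96% lay below all control mice in this way and 4.57% above. Dcn ranged over 456 to 582 (control) and 395 to 452 (Notch3-/-), and Col1a1 over 126 to 167 (control) and 178 to 248 (Notch3-/-). Of the 7 tested fibroblast genes 5 were above 0 and 2 below. Leukocyte genes (Csf1r) gave 225, 201, 221, 220 (control) and 248, 231, 280 (Notch3-/-), adipocyte genes (Fabp4) 308, 207, 279, 241 (control) and 217, 228, 223 (Notch3-/-), and erythroid genes (Hbb-bs or Alas2) 468, 353, 351, 536 (control) and 303, 475, 206 (Notch3-/-). Of the 5 adipocyte genes 2, 4, 1, 5 (control) and 3, 3, 1 (Notch3-/-) had a count. Fabp4 made up most of that sum in each mouse, while Adipoq had 0, 3, 0, 7 (control) and 2, 1, 0 (Notch3-/-) counts. In each of these lists 0 genes were called with edgeR, and their part in the members' values was not tested.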
